A study of Mus musculus with 12 samples.

Results

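A group of 46 striated muscle genes was followed through newborn mouse lung and liver, covering the contractile proteins of skeletal fibres, of the atria and of the ventricles, and the regulators and energy enzymes that go with them. The 46 symbols were matched by name among the 24421 genes counted in each library, and all 46 were found. The list was drawn up knowing that muscle genes stood high in the libraries labelled null lung 1 and null liver 1, so the height of its members in those libraries is a description and carries no test. The study bred heterozygous *Man1a2*tm1.1Ahe mice, which carry a deletion of exon 2 of the mannosidase gene *Man1a2* in every cell, and took lung and liver from *Man1a2*+/+ (WT) and *Man1a2*-/- (null) newborns 30 to 60 minutes after birth. There were 3 libraries in each of 4 groups, WT lung, null lung, WT liver and null liver, 12 in all, each made from the poly-A RNA of whole tissue. No agent was given, and the labels number the libraries within a group without saying which lung and liver came from 1 pup. Expression was read as counts of reads per gene, and levels below are counts per 1000000 counts of the library (CPM).

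Striated muscle contracts through sarcomeres, in which myosin heavy and light chains pull on actin filaments and the troponin complex switches the pull on when calcium is released through ryanodine receptors. Most of these proteins exist as families of isoforms from separate genes, and the member in use marks the fibre: *Myh4*, *Myh1* and *Myh2* in fast fibres, *Myh7* in slow fibres and ventricle, *Myh3* and *Myh8* in embryonic and perinatal muscle, and *Myh6* in the atria and the mouse heart as a whole. In the mouse, a sleeve of heart muscle also surrounds the pulmonary veins and reaches into the lung, whereas the liver has no striated muscle of its own.

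The libraries held 26759463 to 42914295 counts, at which 3 counts correspond to 0.0699 to 0.112 CPM. Counts of *Man1a2* over the whole gene, which do not separate exon 2, ran from 105 to 148 CPM in WT lung against 55.9 to 63.4 CPM in null lung, and from 40.7 to 71.5 CPM in WT liver against 33.7 to 40.2 CPM in null liver. The tissue label of null lung 1 was at odds with its markers. A list of 10 lung epithelial genes summed to 689 CPM there against 26092 to 33087 CPM in the other lungs, and *Sftpc*, the surfactant protein of alveolar type 2 cells, read 34.8 CPM against 15039 to 20989 CPM. The same library held 2629 CPM of *Tg*, the thyroid hormone precursor, and 965 CPM of *Krt4*, a keratin of stratified epithelium, where every other lung held at most 3.81 and 1.28 CPM. Null liver 1 kept its tissue, with 10 hepatocyte genes summing to 176476 CPM against 159970 to 200612 CPM in the other livers, and its *Tg* level was 0.54 CPM. A cartilage list was high in both, at 590 CPM against 35.9 to 69.2 CPM in the other lungs and at 535 CPM against 9.31 to 24.3 CPM in the other livers. The part of these other tissues in the values below was not tested. Annotated genes on the opposite strand overlapped 24 of the 46 members, and the strand setting of the counting is not given in the sources used here, so that counts of those members may include reads of the other gene. In RNA from whole tissue, fewer cells of a type and less RNA per cell cannot be told apart.

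The members stood far above the other libraries of the tissue in the library labelled null lung 1 and in null liver 1, and the 2 libraries did not carry the same muscle genes. Together the 46 genes took 5.51% of all counts in the library labelled null lung 1 (95% Wilson interval 5.503 to 5.520%, which covers counting error only), against 0.0722 to 0.102% in the WT lungs and 0.143 and 0.117% in null lungs 2 and 3. In null liver 1 they took 1.04% (1.036 to 1.043%), against 0.00423 to 0.00504% in the other 5 livers. A gene was counted as standing out when it reached at least 1 CPM and at least 8 times its highest level in any other library of the tissue, each of those taken as at least 3 counts. By this measure 44 of the 46 members stood out in the library labelled null lung 1, where 5.26% of 14663 genes did so, and 37 of 46 in null liver 1, where 2.11% of 13101 genes did so. The choice of the list used these contrasts, so nothing is read from the gap between the members and the background. The median member stood 50.7-fold over the highest other lung and 94.3-fold over the highest other liver, while the median of all genes was 0.821-fold and 0.833-fold. The members just inside the limit were *Des* (9.03-fold) and *Myl3* (9.06-fold) in lung and *Tnnt2* (10.6-fold) and *Myh6* (11.6-fold) in liver, and those just outside were *Ryr2* (4.14-fold) and *Myh7* (2.03-fold) in lung and *Myl4* (6.87-fold) and *Tnnc1* (4.84-fold) in liver. The members accounted for 43.7% of the counts of all genes that stood out in the library labelled null lung 1 and for 66.6% of those in null liver 1.

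**Figure D1:**
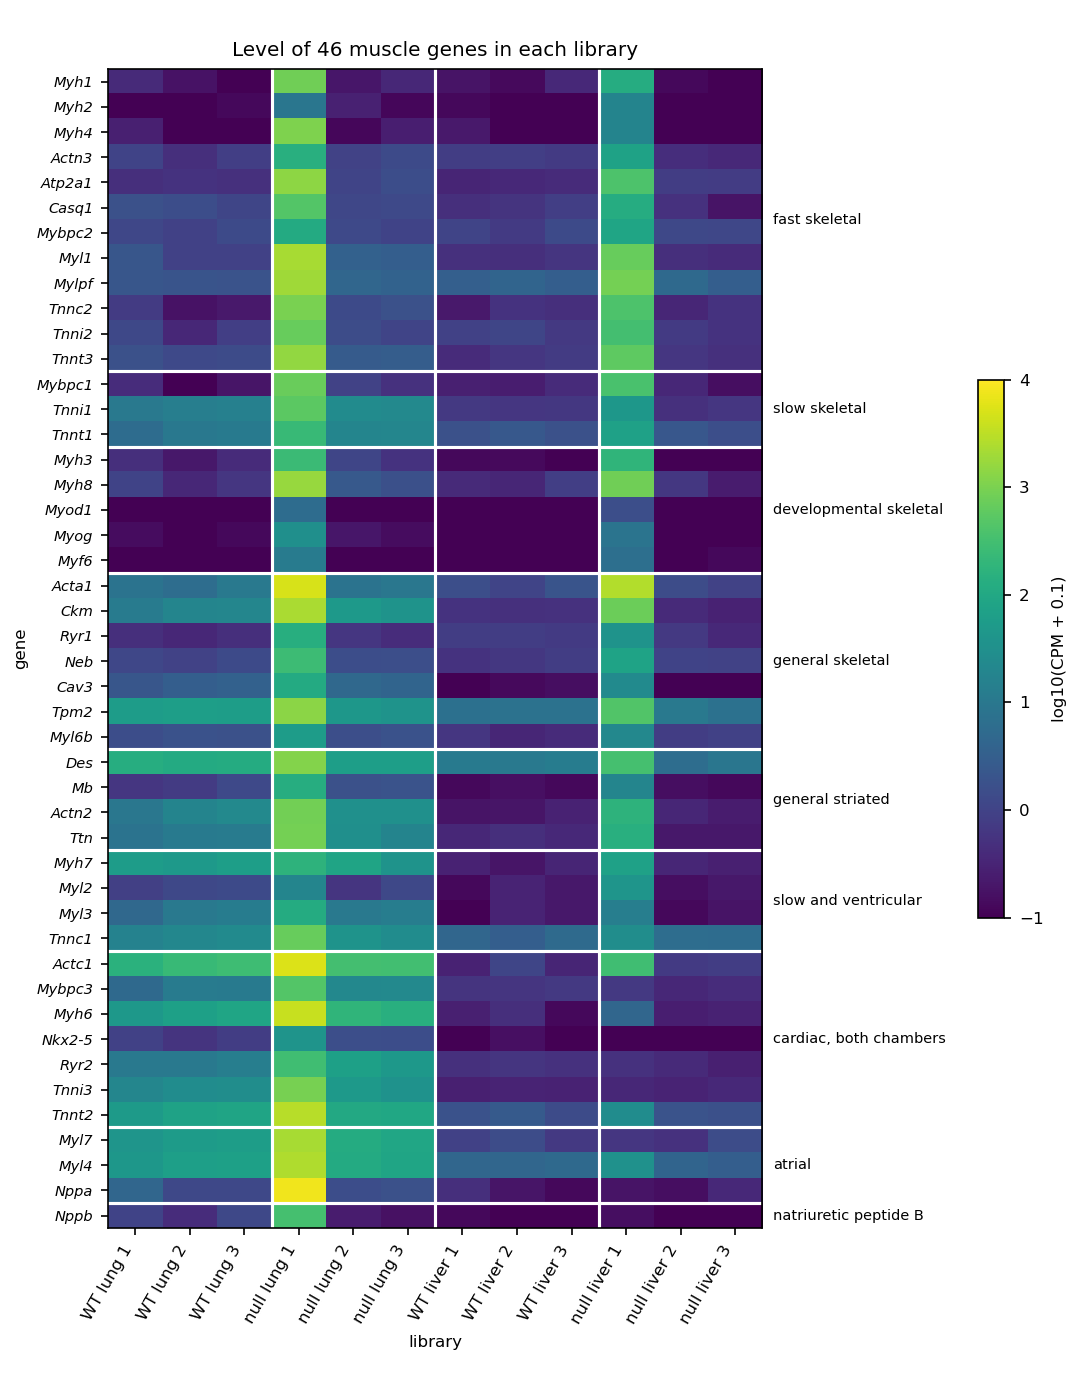
Heat map of the level of each of the 46 members (rows, grouped by muscle type) in each of the 12 libraries (columns), coloured by log10 of CPM after adding 0.1 CPM. The library labelled null lung 1 is bright in every muscle type, null liver 1 is bright in the skeletal types and dark in *Nppa*, *Myl7*, *Nppb* and *Nkx2-5*, and the other lungs are brighter than the other livers in the cardiac rows.

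Promoters of 4 members are shown, a skeletal pair and a cardiac pair. *Acta1*, the skeletal actin, and *Myh4*, the skeletal gene with the largest ratio between the 2 libraries, are set beside *Actc1*, the cardiac actin, and *Myl7*, the atrial light chain. The sequences are the 250 bases before the transcription start in RefSeq annotation of GRCm38.p6, written 5′ to 3′ on the strand of the gene, with capitals marking a CArG box, which serum response factor binds, or a MEF2 box, which the MEF2 factors bind. They lie at chr8:123894776-123895025 on the minus strand (*Acta1*), chr11:67237562-67237811 on the plus strand (*Myh4*), chr2:114052876-114053125 on the minus strand (*Actc1*) and chr11:5898783-5899032 on the minus strand (*Myl7*).
Acta1: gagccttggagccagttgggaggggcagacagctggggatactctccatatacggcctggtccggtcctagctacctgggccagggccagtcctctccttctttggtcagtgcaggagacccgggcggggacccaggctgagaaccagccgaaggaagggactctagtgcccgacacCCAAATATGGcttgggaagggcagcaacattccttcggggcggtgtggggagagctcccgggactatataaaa
Myh4: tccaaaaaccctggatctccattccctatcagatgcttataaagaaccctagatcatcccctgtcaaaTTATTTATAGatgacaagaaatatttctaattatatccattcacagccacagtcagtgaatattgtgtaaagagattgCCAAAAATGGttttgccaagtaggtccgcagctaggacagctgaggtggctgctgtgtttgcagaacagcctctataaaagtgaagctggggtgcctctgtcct
Actc1: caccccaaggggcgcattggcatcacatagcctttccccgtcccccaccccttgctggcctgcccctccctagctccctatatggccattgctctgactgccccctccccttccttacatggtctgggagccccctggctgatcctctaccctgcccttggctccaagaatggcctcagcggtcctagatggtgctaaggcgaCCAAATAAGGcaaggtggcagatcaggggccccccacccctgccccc
Myl7: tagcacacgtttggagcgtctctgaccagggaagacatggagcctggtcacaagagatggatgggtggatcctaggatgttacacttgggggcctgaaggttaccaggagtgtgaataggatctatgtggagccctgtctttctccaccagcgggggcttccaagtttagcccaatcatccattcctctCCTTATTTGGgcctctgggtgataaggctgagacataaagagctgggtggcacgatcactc
The CArG box began 73 bases before the start of *Acta1*, 104 before that of *Myh4*, 47 before that of *Actc1* and 61 before that of *Myl7*, and the MEF2 box of *Myh4* began 182 bases before its start. Windows of 300 bases, 250 before and 50 after the start, were searched on both strands for all 40 members that had a promoter in the table. A CArG box was found for 5 of the 40 (the 4 above and *Myl3*) and in 1.64% of all 32544 promoters. A MEF2 box was found for 5 of the 40 (*Mybpc3*, *Myh1*, *Myh4*, *Myh8* and *Ttn*) and in 3.16% of all promoters. The E-box CANNTG, the motif of the myogenic factors, was found for 36 of the 40 and in 72.3% of all promoters. By their letters none of these motifs can overlap another. A match is a match of letters and not a site shown to be bound.

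All 12 fast fibre genes stood out in both libraries, by 46.1-fold to 6426-fold (median 528-fold) over the other lungs and by a median of 258-fold over the other livers. Values are given below for WT libraries 1, 2 and 3 in that order. *Mylpf*, the regulatory light chain of fast fibres, read 2.08, 1.93 and 1.76 CPM in the WT lungs, 4.44 and 3.68 CPM in null lungs 2 and 3 and 1930.5 CPM in the library labelled null lung 1. In liver *Mylpf* stood at 3.15, 3.97 and 3.03 CPM in WT, 5.05 and 2.97 CPM in null livers 2 and 3 and 896 CPM in null liver 1. All 3 WT livers held more *Mylpf* than the WT lungs, and the libraries labelled null lung 1 and null liver 1 lay far above both. *Myl1*, an essential light chain of fast fibres, read 2.10, 0.839 and 0.820 CPM in WT lung, 3.45 and 2.96 CPM in null lungs 2 and 3 and 2208 CPM in the library labelled null lung 1. For *Myl1* the livers gave 0.405, 0.372 and 0.482 CPM in WT, 0.372 and 0.311 CPM in null 2 and 3 and 674 CPM in null 1. *Tnnc2* and *Tnnt3* encode fast troponin C, the calcium sensor, and fast troponin T, which ties the complex to tropomyosin. *Tnnc2* was at 0.629, 0.0730 and 0.121 CPM in WT lung, 1.23 and 1.63 CPM in null lungs 2 and 3 and 1008 CPM in the library labelled null lung 1. *Tnnc2* in liver was at 0.116, 0.434 and 0.368 CPM in WT, 0.239 and 0.452 CPM in null 2 and 3 and 395 CPM in null 1. *Ube2c* overlaps *Tnnc2* on the other strand. *Tnnt3* was at 1.62, 1.17 and 1.27 CPM in WT lung, 2.58 and 2.84 CPM in null lungs 2 and 3 and 1553 CPM in the library labelled null lung 1. *Tnnt3* in liver was at 0.318, 0.527 and 0.652 CPM in WT, 0.532 and 0.396 CPM in null 2 and 3 and 568 CPM in null 1. To compare levels between genes, CPM was divided by exon length in kb (RPKM). The 8 other fast genes ran from 1.46 to 805 RPKM in the library labelled null lung 1, with *Myh2*, the myosin of intermediate fast fibres, lowest and *Tnni2*, fast troponin I, highest. In null liver 1 they ran from 2.93 to 369.9 RPKM, with *Myh2* and *Myh4*, the myosin of the fastest fibres, at the bottom, both at 2.93 to 2.94 RPKM. *Atp2a1*, the calcium pump of the fast sarcoplasmic reticulum, was at 1432 and 399 CPM in the 2 libraries.

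Slow fibre genes stood out too, all 3 in each library. *Tnni1*, slow troponin I, which is also the troponin I of the fetal heart, read 10.3, 13.7 and 15.02 CPM in WT lung, 26.2 and 22.9 CPM in null lungs 2 and 3 and 548 CPM in the library labelled null lung 1. *Tnni1* in liver read 0.578, 0.527 and 0.538 CPM in WT, 0.399 and 0.509 CPM in null 2 and 3 and 44.7 CPM in null 1. *Tnni1* was thus already above every liver but null liver 1 in the ordinary lungs. *Tnnt1*, slow troponin T, gave 5.83, 9.99 and 10.8 CPM in WT lung, 18.5 and 19.8 CPM in null lungs 2 and 3 and 229.9 CPM in the library labelled null lung 1. *Tnnt1* in liver gave 1.65, 2.26 and 1.62 CPM in WT, 2.21 and 1.50 CPM in null 2 and 3 and 71.2 CPM in null 1. *Mybpc1*, the slow myosin binding protein C, which braces the thick filament, differed from these in being close to absent from the ordinary lungs. *Mybpc1* stood at 0.339, 0 and 0.0911 CPM in WT lung, 0.868 and 0.419 CPM in null lungs 2 and 3 and 706 CPM in the library labelled null lung 1. *Mybpc1* in liver stood at 0.173, 0.155 and 0.312 CPM in WT, 0.266 and 0.0565 CPM in null 2 and 3 and 372 CPM in null 1.

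All 5 developmental muscle genes stood out in both libraries. *Myh8*, the perinatal myosin, was the highest of the skeletal heavy chains in both libraries. *Myh8* read 0.919, 0.255 and 0.516 CPM in WT lung, 2.34 and 1.58 CPM in null lungs 2 and 3 and 1687 CPM in the library labelled null lung 1. *Myh8* in liver read 0.289, 0.248 and 0.765 CPM in WT, 0.558 and 0.141 CPM in null 2 and 3 and 831 CPM in null 1. *Myh3*, the embryonic myosin, was several times lower in each. *Myh3* gave 0.363, 0.109 and 0.304 CPM in WT lung, 1.01 and 0.443 CPM in null lungs 2 and 3 and 260.1 CPM in the library labelled null lung 1. *Myh3* in liver gave 0.0289, 0.0310 and 0 CPM in WT, 0 and 0 CPM in null 2 and 3 and 185 CPM in null 1. Factors of the MyoD family, which switch on the muscle programme, were detected almost nowhere else. *Myog* stood at 0.0484, 0 and 0.0304 CPM in WT lung, 0.0965 and 0.0466 CPM in null lungs 2 and 3 and 30.7 CPM in the library labelled null lung 1, and in liver at 8.12 CPM in null 1 and at 0 counts in the other 5. *Myf6* stood at 11.996 CPM in the library labelled null lung 1 and at 0 counts in the other 5 lungs. In liver *Myf6* stood at 6.53 CPM in null 1, at 0.0283 CPM in null 3 and at 0 counts in the other 4. *Myod1* reached 5.83 CPM and 1.47 CPM in the same 2 libraries and had 0 counts in the other 10, each of which allows up to 0.0699 to 0.109 CPM.

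Genes that skeletal fibres share, whatever their speed, stood out in full in both libraries (7 of 7 each). *Acta1*, skeletal alpha-actin, was the most abundant skeletal gene of the list per kb, at 3462 RPKM in the library labelled null lung 1 and 1812 RPKM in null liver 1. *Acta1* read 7.91, 5.91 and 10.4 CPM in WT lung, 7.91 and 9.41 CPM in null lungs 2 and 3 and 5005 CPM in the library labelled null lung 1, and in liver 1.47, 0.961 and 1.93 CPM in WT, 1.36 and 0.848 CPM in null 2 and 3 and 2619.8 CPM in null 1. *Ckm*, the muscle creatine kinase that buffers ATP, gave 12.1, 18.6 and 19.2 CPM in WT lung, 48.3 and 36.1 CPM in null lungs 2 and 3 and 2322 CPM in the library labelled null lung 1. *Ckm* in liver gave 0.434, 0.403 and 0.425 CPM in WT, 0.293 and 0.198 CPM in null 2 and 3 and 766 CPM in null 1. *Tpm2*, beta-tropomyosin, is shared with smooth muscle, and its level in the ordinary lungs was not near 0. *Tpm2* stood at 58.2, 62.2 and 59.3 CPM in WT lung, 44.9 and 36.6 CPM in null lungs 2 and 3 and 1355 CPM in the library labelled null lung 1. *Tpm2* in liver stood at 6.97, 7.63 and 7.71 CPM in WT, 10.5 and 7.12 CPM in null 2 and 3 and 435 CPM in null 1. *Cav3*, the caveolin of the muscle membrane, was at 2.06, 2.99 and 3.55 CPM in WT lung, 4.75 and 3.94 CPM in null lungs 2 and 3 and 115 CPM in the library labelled null lung 1. *Cav3* in liver was at 0, 0.0310 and 0.0567 CPM in WT, at 0 counts in null 2 and 3 and at 24.1 CPM in null 1. The other 3 genes were *Neb*, *Ryr1* and *Myl6b*, at 57.8 to 272 CPM in the library labelled null lung 1 and 21.5 to 78.5 CPM in null liver 1.

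The 4 genes common to skeletal and heart muscle all stood out as well. *Des*, the intermediate filament desmin, is made by smooth muscle too. *Des* read 129, 113 and 118 CPM in WT lung, 63.8 and 62.6 CPM in null lungs 2 and 3 and 1165 CPM in the library labelled null lung 1, and in liver 10.9, 10.4 and 12.6 CPM in WT, 6.12 and 9.04 CPM in null 2 and 3 and 339.6 CPM in null 1. *Actn2*, the alpha-actinin of the Z disc, read 9.58, 18.3 and 22.2 CPM in WT lung, 32.5 and 32.5 CPM in null lungs 2 and 3 and 861 CPM in the library labelled null lung 1. *Actn2* in liver read 0.0867, 0.0930 and 0.198 CPM in WT, 0.239 and 0.141 CPM in null 2 and 3 and 174 CPM in null 1. *Ttn* encodes titin, the elastic spring of the sarcomere, and *Mb* encodes myoglobin, the oxygen store. *Ttn* gave 7.81, 10.8 and 12.2 CPM in WT lung, 31.3 and 17.7 CPM in null lungs 2 and 3 and 889 CPM in the library labelled null lung 1, and in liver 0.260, 0.372 and 0.283 CPM in WT, 0.106 and 0.113 CPM in null 2 and 3 and 140.3 CPM in null 1. *Mb* gave 0.508, 0.657 and 1.18 CPM in WT lung, 1.66 and 1.77 CPM in null lungs 2 and 3 and 130.0 CPM in the library labelled null lung 1, and in liver 0.0289, 0.0620 and 0.0283 CPM in WT, 0.0532 and 0.0283 CPM in null 2 and 3 and 18.7 CPM in null 1.

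Genes shared by slow fibres and ventricle were where the class of the muscle began to differ. *Myl2*, the regulatory light chain of ventricle and slow fibre, was the 1 gene of the class that stood higher in null liver 1. *Myl2* read 0.798, 1.13 and 1.21 CPM in WT lung, 0.482 and 1.10 CPM in null lungs 2 and 3 and 18.5 CPM in the library labelled null lung 1. *Myl2* in liver read 0.0289, 0.217 and 0.113 CPM in WT, 0.0532 and 0.113 CPM in null 2 and 3 and 40.2 CPM in null 1. *Myh7*, the beta myosin heavy chain, was plain in every lung and did not stand out in the library labelled null lung 1, with 57.02, 50.7 and 63.2 CPM in WT lung, 84.5 and 36.6 CPM in null lungs 2 and 3 and 171 CPM in that library. *Myh7* in liver was at 0.202, 0.0930 and 0.227 CPM in WT, 0.239 and 0.170 CPM in null 2 and 3 and 73.5 CPM in null 1. The gene overlaps *Mhrt* on the other strand. *Tnnc1*, slow and cardiac troponin C, gave 16.3, 20.4 and 25.1 CPM in WT lung, 36.9 and 27.4 CPM in null lungs 2 and 3 and 703 CPM in the library labelled null lung 1, and in liver 4.28, 3.04 and 5.33 CPM in WT, 5.90 and 5.68 CPM in null 2 and 3 and 28.6 CPM in null 1. *Myl3*, the essential light chain of the same muscles, gave 4.77, 10.3 and 12.6 CPM in WT lung, 10.3 and 12.9 CPM in null lungs 2 and 3 and 117 CPM in the library labelled null lung 1, and in liver 0, 0.217 and 0.113 CPM in WT, 0.0266 and 0.0848 CPM in null 2 and 3 and 13.4 CPM in null 1.

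Heart genes separated the 2 libraries. Of the 7 genes that atrium and ventricle share, 6 stood out in the library labelled null lung 1 and 3 in null liver 1 (*Actc1*, *Tnnt2* and *Myh6*), and of the 3 atrial genes 3 stood out in the former and 0 in the latter. *Actc1*, cardiac alpha-actin, which fetal skeletal muscle also makes, read 157, 231 and 283 CPM in WT lung, 320.0 and 309 CPM in null lungs 2 and 3 and 5445 CPM in the library labelled null lung 1. *Actc1* in liver read 0.202, 1.02 and 0.227 CPM in WT, 0.612 and 0.707 CPM in null 2 and 3 and 298 CPM in null 1. Cardiac troponin T, *Tnnt2*, is likewise made by fetal skeletal muscle for a time, and it followed the same pattern. *Tnnt2* gave 52.3, 75.5 and 81.5 CPM in WT lung, 106 and 94.001 CPM in null lungs 2 and 3 and 2912 CPM in the library labelled null lung 1, and in liver 1.73, 2.48 and 1.28 CPM in WT, 1.83 and 1.53 CPM in null 2 and 3 and 26.4 CPM in null 1. *Tnni3*, the adult cardiac troponin I, which skeletal muscle lacks, stood at 19.96, 26.4 and 27.6 CPM in WT lung, 51.7 and 34.9 CPM in null lungs 2 and 3 and 925 CPM in the library labelled null lung 1. *Tnni3* in liver stood at 0.173, 0.217 and 0.198 CPM in WT, 0.213 and 0.283 CPM in null 2 and 3 and 0.255 CPM in null 1, so that null liver 1 lay within the range of the other livers. *Myh6*, the alpha myosin heavy chain, stood at 46.5, 69.96 and 86.4 CPM in WT lung, 184 and 141 CPM in null lungs 2 and 3 and 3849 CPM in the library labelled null lung 1. *Myh6* in liver stood at 0.173, 0.372 and 0.0283 CPM in WT, 0.160 and 0.198 CPM in null 2 and 3 and 4.33 CPM in null 1. *Mybpc3* and *Ryr2*, the cardiac binding protein and calcium release channel, were at 457 and 290.5 CPM in the library labelled null lung 1 and at 0.566 and 0.424 CPM in null liver 1. *Nkx2-5*, the early heart transcription factor, was at 38.8 CPM in the former and at 0 counts in the latter, which allows up to 0.0849 CPM.

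The atrial genes *Nppa* and *Myl7* were the highest of the list per kb in the library labelled null lung 1, at 9039 and 3793 RPKM, while the third, *Myl4*, was at 2115 RPKM, under *Actc1*, *Acta1*, *Mylpf* and *Tnnt2*. *Nppa*, the hormone precursor of the atria, read 4.35, 1.13 and 1.12 CPM in WT lung, 1.42 and 1.65 CPM in null lungs 2 and 3 and 7819 CPM in the library labelled null lung 1. *Nppa* in liver read 0.376, 0.0930 and 0.0283 CPM in WT, 0.0532 and 0.283 CPM in null 2 and 3 and 0.0849 CPM in null 1. *Nppa* lies at chr4:148000722-148002079 on the plus strand (GRCm38). WT lung 1 was the highest ordinary lung for it, and null liver 1 was at 3 counts. *Myl7*, the atrial regulatory light chain, gave 41.1, 55.8 and 59.6 CPM in WT lung, 118 and 88.9 CPM in null lungs 2 and 3 and 2238 CPM in the library labelled null lung 1. *Myl7* in liver gave 0.809, 1.36 and 0.567 CPM in WT, 0.425 and 1.33 CPM in null 2 and 3 and 0.509 CPM in null 1. *Myl4*, the atrial essential light chain, is also used by embryonic skeletal muscle, and it was the atrial gene that came closest to standing out in null liver 1. *Myl4* was at 44.4, 66.1 and 68.99 CPM in WT lung, 115 and 87.4 CPM in null lungs 2 and 3 and 2542 CPM in the library labelled null lung 1, and in liver at 4.39, 4.34 and 4.99 CPM in WT, 4.07 and 3.05 CPM in null 2 and 3 and 34.3 CPM in null 1. *Nppb*, the natriuretic peptide more typical of ventricle, was at 0.919, 0.328 and 1.09 CPM in WT lung, 0.145 and 0.0699 CPM in null lungs 2 and 3 and 330.1 CPM in the library labelled null lung 1. *Nppb* in liver was at 0.0289, 0 and 0 CPM in WT, at 0 counts in null 2 and 3 and at 0.0566 CPM in null 1.

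Isoform shares show which muscle each library carried without reference to how much. Counts were divided by the length of the gene's merged exons, so that the members of a family could be set against each other, and the intervals are 95% Wilson intervals that cover counting error only. Among the 5 skeletal heavy chains, the library labelled null lung 1 held 37.1% *Myh8* (36.8 to 37.4%), 31.3% *Myh4* (31.0 to 31.6%), 23.8% *Myh1* (23.6 to 24.1%), 7.44% *Myh3* (7.27 to 7.61%) and 0.253% *Myh2* (0.223 to 0.287%). Null liver 1 held 65.1% *Myh8* (64.6 to 65.6%), 18.8% *Myh3* (18.4 to 19.2%), 12.5% *Myh1* (12.1 to 12.8%), 1.82% *Myh4* (1.68 to 1.96%) and 1.81% *Myh2* (1.68 to 1.95%). Perinatal myosin therefore led in both, but the fastest adult isoform, *Myh4*, was second in the former and near the bottom in the latter, while embryonic *Myh3* was second in null liver 1. The 5 genes lie side by side on chromosome 11 (*Myh3* at chr11:67078300-67102291, *Myh2* at chr11:67171027-67197517, *Myh1* at chr11:67200052-67224575, *Myh4* at chr11:67238029-67260446 and *Myh8* at chr11:67277124-67308634, GRCm38, plus strand). They share sequence: of the 75-base stretches of their exons, 16.2% of those of *Myh1*, 16.3% of *Myh2*, 11.4% of *Myh8*, 9.37% of *Myh4* and 0.588% of *Myh3* also occur in another gene, so reads there may be lost or split and the shares are uncertain to that extent.

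Other families drew the same line between heart and skeletal muscle. Of all 7 heavy chains, *Myh6* made up 51.0% in the library labelled null lung 1 and 0.406% in null liver 1, where *Myh7* made up 6.67%. *Myh6* and *Myh7* are neighbours on chromosome 14 (chr14:54941921-54966927 and chr14:54970684-54994626, minus strand), and 15.6% and 15.3% of their 75-base stretches occur in another gene. Regulatory light chains in the library labelled null lung 1 were 61.5% atrial *Myl7*, 38.2% fast *Mylpf* and 0.242% ventricular and slow *Myl2*. In null liver 1 they were 97.1% *Mylpf*, 2.87% *Myl2* and 0.0766% *Myl7*. Atrial light chain thus exceeded ventricular light chain by far in the one library, and neither passed 2.87% in the other. Troponin I in the library labelled null lung 1 was 45.1% cardiac *Tnni3*, 35.8% fast *Tnni2* and 19.1% slow *Tnni1*, and in null liver 1 it was 91.3% *Tnni2*, 8.67% *Tnni1* and 0.0689% *Tnni3*. Troponin T was 59.9% cardiac *Tnnt2*, 34.6% fast *Tnnt3* and 5.54% slow *Tnnt1* in the former, against 3.64%, 84.9% and 11.5% in the latter. Of the sarcomeric actins, cardiac *Actc1* made up 51.6% (51.5 to 51.8%) in the library labelled null lung 1 and 10.04% (9.86 to 10.2%) in null liver 1. The ryanodine receptors divided as well, with cardiac *Ryr2* at 64.5% in the former and skeletal *Ryr1* at 99.1% in the latter.

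**Figure D2:**
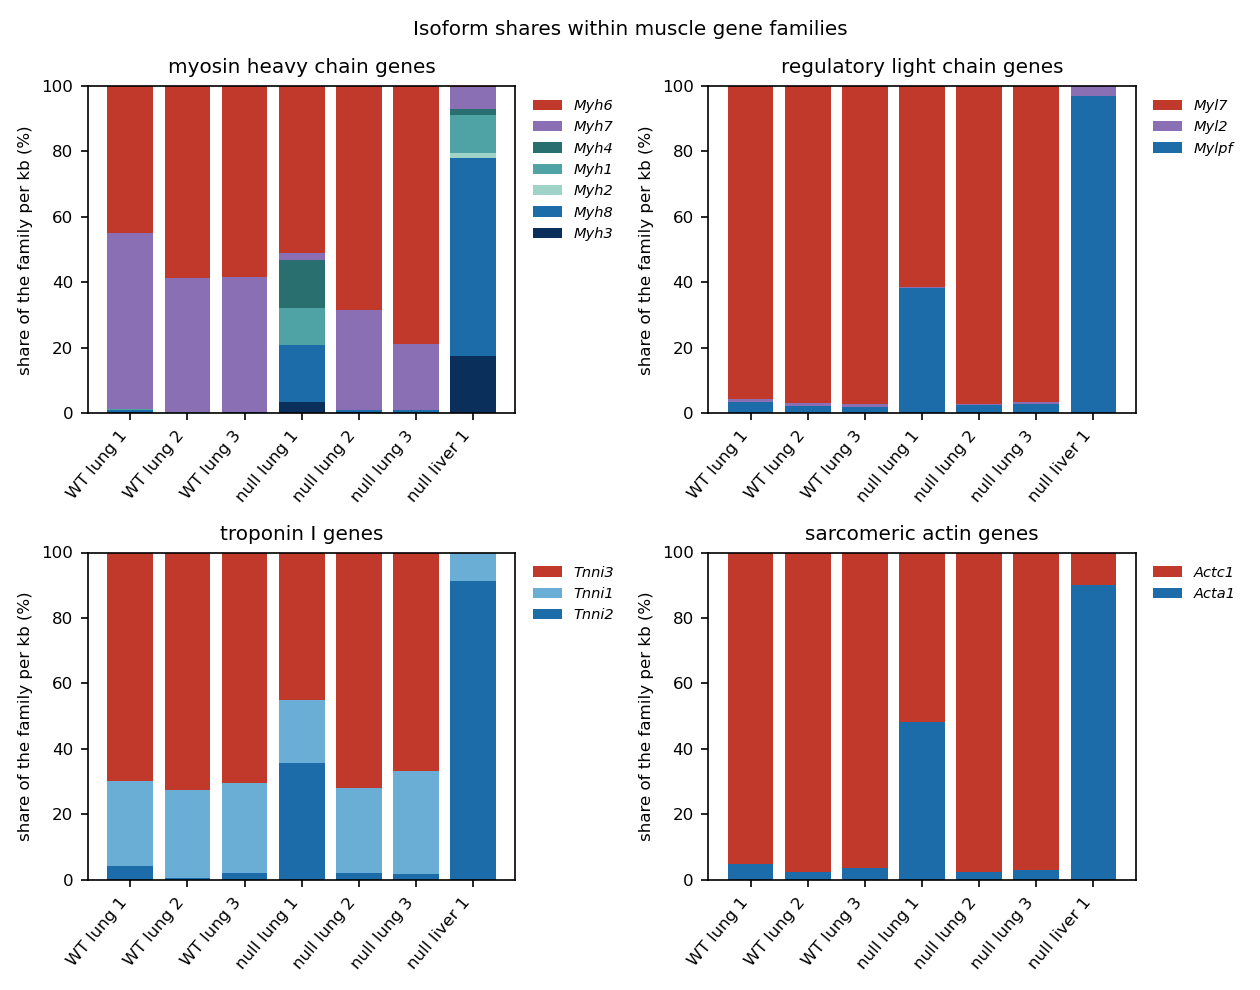
Stacked bars of the share of each isoform within its family, in percent of counts per kb of exon, for the 6 lungs and null liver 1. The library labelled null lung 1 mixes cardiac and fast skeletal isoforms, null liver 1 is nearly all skeletal, and the other 5 lungs are led by the cardiac isoforms, such as *Actc1* at 95.1 to 97.5% of sarcomeric actin in the WT lungs.

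Set against each other gene by gene, the library labelled null lung 1 exceeded null liver 1 by a few-fold in skeletal genes and by at least 18.3-fold in each shared heart and atrial gene. The median ratio of CPM was 2.64 over the 12 fast genes (0.498 for *Myh2* to 61.5 for *Myh4*), 3.23 over the 3 slow genes, 2.03 over the 5 developmental genes, 3.12 over the 7 general skeletal genes and 5.64 over the 4 genes of all striated muscle. It was 5.53 over the 4 genes of slow fibre and ventricle (0.461 for *Myl2* to 24.6 for *Tnnc1*), 685 over the 7 shared heart genes (18.3 for *Actc1* to 3635 for *Tnni3*) and 4396 over the 3 atrial genes (74.1 for *Myl4*). The ratios of *Nppa*, *Nppb* and *Nkx2-5* are lower bounds, since null liver 1 was at or under 3 counts for them and was taken as 3 counts. *Myl2* and *Myh2* were the 2 members that stood higher in null liver 1. With 1 library on each side and 2 tissues, these ratios have no replicate check.

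**Figure D3:**
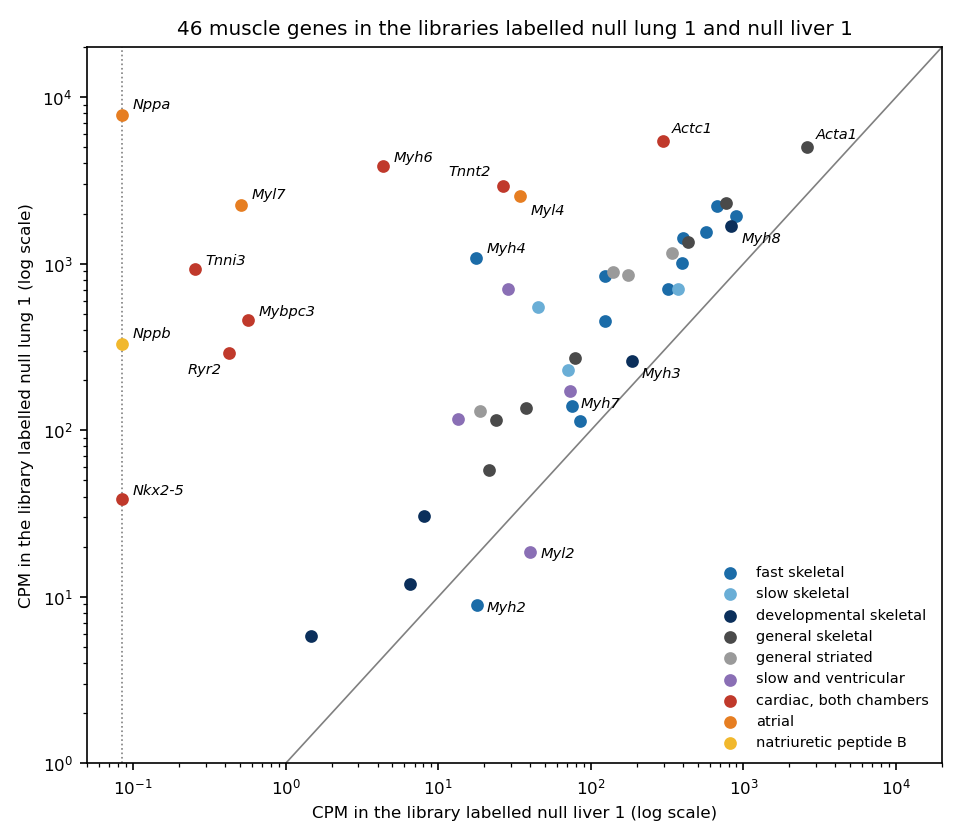
Level of each member in the library labelled null lung 1 (vertical axis, CPM, log scale) against null liver 1 (horizontal axis, CPM, log scale), coloured by muscle type. The diagonal marks equal levels, and the dotted line marks 3 counts in null liver 1 (0.0849 CPM), at which lower values are drawn. Skeletal genes lie a few-fold above the diagonal, and the shared heart and atrial genes lie far above it, up to *Nppa* at 7819 CPM.

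Muscle genes beyond the list stood out in the same libraries. Those genes were also chosen with earlier results of these data known, so their counts are a description only. Over all genes, 5.26% of 14663 stood out in the library labelled null lung 1 and 2.11% of 13101 in null liver 1. Of 33 other skeletal genes, 29 stood out in the library labelled null lung 1 and 26 in null liver 1, among them *Eno3*, the muscle enolase, at 958 and 256 CPM. Of 24 other genes of striated muscle, 23 and 19 stood out, among them *Casq2*, the calcium store protein calsequestrin 2, at 968 and 134 CPM. Of 23 other heart genes, 17 and 7 stood out, among them *Ankrd1*, a stretch-responsive cardiac ankyrin protein, at 1285 and 6.65 CPM. Of 10 smooth muscle genes, 1 stood out in each library. *Acta2*, smooth muscle actin, read 1112 CPM in the library labelled null lung 1, where the other lungs held 176 to 338 CPM.

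WT lung libraries held heart muscle genes, and few of the fast and developmental skeletal ones. Of the 46 members, 25 reached 1 CPM in all 3 WT lungs and 13 reached 10 CPM, while 14 stayed under 1 CPM in all 3. All 5 developmental genes were among those 14, together with 6 of the 12 fast genes, whereas 6 of the 7 shared heart genes and all 3 atrial genes reached 1 CPM throughout. Per kb, *Actc1* came first in every WT lung (107 to 192 RPKM), followed by *Myl7* (69.7 to 101 RPKM), *Tnnt2* (41.4 to 64.5 RPKM), *Myl4* (37.0 to 57.4 RPKM) and *Des* (37.2 to 42.6 RPKM). The ranges of *Tnnt2*, *Myl4* and *Des* overlap, so their order does not exceed the spread between libraries. Next came *Tnnc1* (22.5 to 34.8 RPKM), *Tnni3* (21.9 to 30.2 RPKM) and *Tpm2* (24.4 to 26.1 RPKM), which overlap too, then *Myh6* (7.61 to 14.1 RPKM), *Tnni1* (8.11 to 11.8 RPKM), *Myl3* (4.47 to 11.8 RPKM), *Tnnt1* (5.41 to 10.05 RPKM) and *Myh7* (8.03 to 10.01 RPKM), whose ranges overlap as well. The atrial regulatory chain *Myl7* made up 95.6 to 97.0% of regulatory light chain per kb in WT lung, and ventricular *Myl2* was at 0.642 to 0.977 RPKM. The hormone *Nppa* was low (1.30 to 5.03 RPKM) beside the atrial light chains. Of cardiac heavy chain, *Myh6* made up 45.7, 58.8 and 58.6% in WT lungs 1, 2 and 3, 69.2 and 79.9% in null lungs 2 and 3, and 95.9% in the library labelled null lung 1. Troponin I in WT lung was 69.9 to 72.4% cardiac *Tnni3* and 25.9 to 27.5% slow *Tnni1*. WT lung 1 was the lowest of the 3 WT lungs for 23 of the 46 members. Lists of other tissues differed between these lungs as well. Hepatocyte genes summed to 760, 46.4 and 71.6 CPM in WT lungs 1, 2 and 3, and thymus genes to 16.4, 5.33 and 2.88 CPM. Which tissue the heart muscle transcripts came from was not tested.

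**Figure D4:**
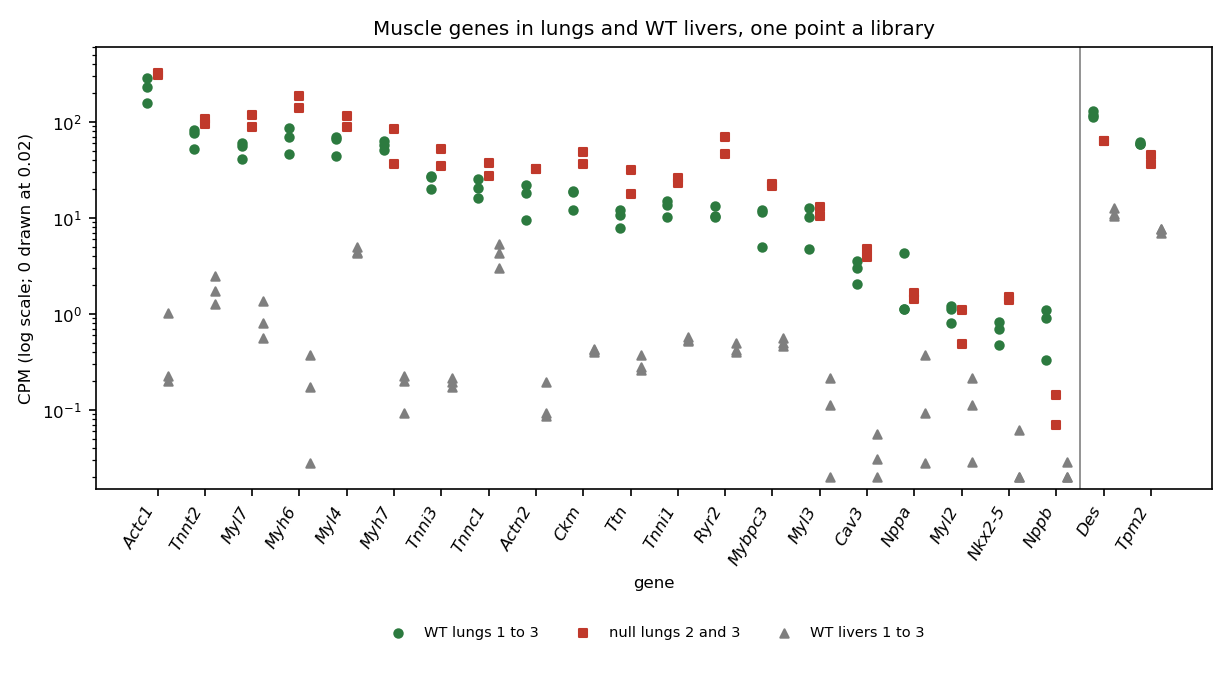
Levels of members in the 3 WT lungs, in null lungs 2 and 3 and in the 3 WT livers (CPM, log scale), 1 point for each library. A level of 0 is drawn at 0.02 CPM. A vertical line sets *Des* and *Tpm2* apart, which smooth muscle makes too and which were lower in both null lungs. *Nppb*, on the other side of the line, was also lower in both, whereas *Ryr2*, *Myh6* and *Myl7* were higher in both.

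WT lung was tested against WT liver, which asks which of these genes stood higher in the lung libraries than in a tissue without striated muscle. Of 38 members with enough counts, 28 passed edgeR's quasi-likelihood test (Benjamini-Hochberg adjusted p below 0.05 over all 15635 genes and at least 1.2-fold), 26 higher and 2 lower in lung, where 39.8% of all genes tested passed as higher and 37.2% as lower (77.0% either way). The 8 members left untested for few counts were *Myh1*, *Myh2*, *Myh3*, *Myh4*, *Mybpc1*, *Myod1*, *Myog* and *Myf6*. The median log2 difference over the 38 was 2.77, against 0.0410 over all genes tested, and was 2.34 with the 4 genes that were at or under 3 counts in every WT liver set to their lower bounds. All 7 shared heart genes, all 3 atrial genes and all 4 genes of slow fibre and ventricle were higher in lung, as were all 4 genes of striated muscle, *Tnni1* and *Tnnt1*, 5 of the 7 general skeletal genes and *Nppb*. Of the 9 fast genes tested, 0 were higher by edgeR's test and 3 had a log2 difference above 0. *Actc1* was higher in lung by 8.08 ± 0.45 (log2, SE; adjusted p = 2.11e-07), *Myh6* by 7.69 ± 0.42 (1.95e-07) and *Myh7* by 7.53 ± 0.21 (4.96e-09). *Actn2* differed by 6.21 ± 0.45, *Tnni3* by 6.16 ± 0.23, *Myl7* by 5.05 ± 0.27, *Tnnt2* by 4.46 ± 0.26 and *Ryr2* by 3.89 ± 0.22 on the same scale. For *Cav3*, *Mb*, *Nkx2-5* and *Nppb* every WT liver was at or under 3 counts, so that only a lower bound can be given. On TMM-scaled CPM, the mean of the 3 WT lungs stood at least 18.7-fold, 5.11-fold, 4.36-fold and 5.11-fold above 3 counts in WT liver, and the lowest WT lung 13.7-fold, 3.38-fold, 3.07-fold and 2.13-fold above it. The genes lower in lung were fast *Mylpf*, which fell by 1.60 ± 0.21 (log2, SE; adjusted p = 7.65e-05), and *Ryr1*, the skeletal ryanodine receptor, which fell by 1.80 ± 0.29 (adjusted p = 0.000349). Replicates are single libraries, and the p-values measure the spread between these libraries. Lung and liver libraries of the same number were not paired in this test. Outside the list, 16 of 22 other heart genes passed as higher and 3 as lower, 17 of 22 other striated genes passed as higher and 4 as lower, and 10 of 15 other skeletal genes as higher and 1 as lower. All 10 smooth muscle genes were also higher in lung, among them *Acta2* by 3.28 ± 0.11 (log2, SE). Smooth muscle makes *Des* and *Tpm2* too, and its part in the difference of those members was not tested.

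The comparison of null with WT lung turned on whether the library labelled null lung 1 was included. With all 6 lungs, 0 of 40 members tested passed edgeR's test (34 had an unadjusted p below 0.05, and DESeq2 called 1 of the 2 members it tested), where 0.327% of 15591 genes passed. Of those 15591 genes, 3898 had an unadjusted p below 0.05 by edgeR's test. The list was chosen with this contrast known, so these counts describe it and support nothing. The test was therefore repeated with null lungs 2 and 3 alone, whose epithelial markers summed to 32857 and 26092 CPM against 29148 to 33087 CPM in WT lung and which shared the WT lungs with the comparison above.

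The 7 shared heart genes and 2 of 3 atrial genes were higher in null lungs 2 and 3 than in the WT lungs. Lower were *Des* and *Tpm2*, which smooth muscle makes too, and the natriuretic peptide gene *Nppb*. Of 41 members tested, 25 passed, 22 higher and 3 lower in null lung, where 18.0% of 15885 genes tested passed as higher and 19.0% as lower (37.0% either way). The 5 members left untested for few counts were *Myh2*, *Myh4*, *Myod1*, *Myog* and *Myf6*. Leaving out null lung 2 sets null lung 3 alone against the WT lungs, and *Actc1*, *Nkx2-5*, *Tnnt2* and *Myl4* were among the members that lost the call. *Actc1* and *Nkx2-5* each lost it when any 1 of 3 of the 5 libraries was left out. The 12 members called in every alternative that tested them were *Atp2a1*, *Mylpf*, *Tnni1*, *Tnnt1*, *Ckm*, *Des*, *Ttn*, *Mybpc3*, *Myh6*, *Ryr2*, *Tnni3* and *Myl7*. The median log2 difference over the 41 members was 0.91, against -0.0105 over all genes tested. With both null lungs, all 7 shared heart genes were higher, as were 2 of 3 atrial genes (*Myl7* and *Myl4*), 3 of 4 genes of striated muscle, 5 of 10 fast genes, 2 of 3 slow genes, 1 of 2 developmental genes, 1 of 7 general skeletal genes (*Ckm*) and 1 of 4 genes of slow fibre and ventricle (*Tnnc1*). The values in this paragraph are CPM scaled for composition by TMM, as mean ± SD over 3 WT and 2 null libraries. *Ryr2*, at chr13:11553102-12106945 on the minus strand (GRCm38), went from 10.9 ± 1.68 CPM (n = 3) to 62.4 ± 19.2 CPM (n = 2), a log2 difference of 2.52 ± 0.21 (SE; edgeR adjusted p = 0.000592). *Myh6* went from 64.8 ± 19.0 to 173 ± 37.1 CPM (1.42 ± 0.24; edgeR adjusted p = 0.00441), and *Myl7* from 49.98 ± 9.05 to 110.5 ± 24.6 CPM (1.14 ± 0.19; edgeR adjusted p = 0.00382). The groups did not overlap for any of the 3. *Tnni3* rose from 23.6 ± 3.78 to 46.3 ± 13.8 CPM, *Mybpc3* from 9.17 ± 3.75 to 23.5 ± 0.162 CPM and *Actc1* from 214 ± 59.9 to 335 ± 16.4 CPM, the last with edgeR adjusted p = 0.0482. *Ckm* rose from 15.9 ± 3.70 to 45.1 ± 10.2 CPM (1.504 ± 0.22; edgeR adjusted p = 0.00260), and slow *Tnni1* from 12.5 ± 2.25 to 26.2 ± 3.11 CPM. Among the fast genes that passed, *Mylpf* went from 1.85 ± 0.163 to 4.33 ± 0.675 CPM and *Atp2a1* from 0.382 ± 0.0331 to 1.27 ± 0.349 CPM.

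Among the 16 members tested that did not pass, *Myh7* was at 54.6 ± 6.13 CPM in WT lung and 64.9 ± 37.7 CPM in null lungs 2 and 3, which lay on either side of the WT libraries. *Acta1* was at 7.75 ± 2.17 and 9.21 ± 0.908 CPM, and *Nppa* at 2.12 ± 1.81 and 1.64 ± 0.135 CPM, with overlapping groups in each case. The 3 members lower in null lung were *Des*, *Tpm2* and *Nppb*. *Des* went from 115 ± 8.83 to 67.4 ± 2.54 CPM and fell by 0.77 ± 0.11 (log2, SE; edgeR adjusted p = 0.00206), and *Tpm2* from 57.4 ± 1.58 to 43.5 ± 7.31 CPM, falling by 0.40 ± 0.13 (edgeR adjusted p = 0.0412). The call of *Tpm2* was lost with DESeq2's size factors and when any 1 of 4 of the 5 libraries was left out. *Nppb* fell from 0.749 ± 0.386 to 0.115 ± 0.0591 CPM, which rests on 6 and 3 counts in the null lungs. On total-count CPM, both null lungs lay above all 3 WT lungs for 26 members and below all 3 for 3 members. The same count was not made over all genes, so nothing is read from these 2 numbers.

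Lists of other markers were read in the same fit, where 18.0% of all 15885 genes tested passed as higher and 19.0% as lower. Of 21 other heart genes tested, 9 were higher and 1 lower in null lungs 2 and 3, among them *Ankrd1*, which rose by 0.98 ± 0.25 (log2, SE), and *Pln*, the regulator of the cardiac calcium pump, which rose by 1.93 ± 0.41. Of 22 other striated genes, 11 were higher and 0 lower, and of 19 other skeletal genes, 7 were higher and 1 lower. Smooth muscle genes leaned the opposite way, with 0 of 10 higher and 4 lower by edgeR's test. Not all fell, since 3 of the 10 had a log2 difference above 0. The list summed to 911 and 835 CPM in null lungs 2 and 3 against 1195 to 1237 CPM in WT lung. *Tagln*, a smooth muscle cytoskeletal protein, fell by 0.98 ± 0.10, and *Acta2* by 0.57 ± 0.11. Of 10 lung epithelial genes, 1 was higher and 2 lower. Thyroid markers summed to 7.40 and 4.31 CPM in null lungs 2 and 3 against 4.77 to 5.43 CPM in WT lung, and squamous markers to 22.3 and 15.5 CPM against 18.8 to 28.1 CPM. Other lists stood above all 3 WT lungs in both null lungs: cartilage at 69.2 and 59.4 CPM against 35.8 to 52.1 CPM, brown fat at 7.38 and 34.0 CPM against 2.40 to 2.70 CPM, bone at 34.0 and 28.6 CPM against 10.1 to 17.7 CPM and Schwann cells at 737 and 658 CPM against 629.6 to 641 CPM. Of these, cartilage and brown fat were also high in the library labelled null lung 1, at 590 and 74.3 CPM. In null lungs 2 and 3, however, single genes made up most of the cartilage, brown fat and bone sums. These were *Hapln1* at 65.0 and 49.8 CPM, *Dio2* at 5.72 and 31.9 CPM and *Phex* at 32.8 and 27.4 CPM. The sums therefore do not show that the lists rose as a whole. By edgeR's test 2 of 7 cartilage genes were higher and 1 lower, and 2 of 3 brown fat genes, 1 of 2 bone genes and 2 of 6 Schwann cell genes were higher. The part of these other cell types in the members' values was not tested.

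**Figure D5:**
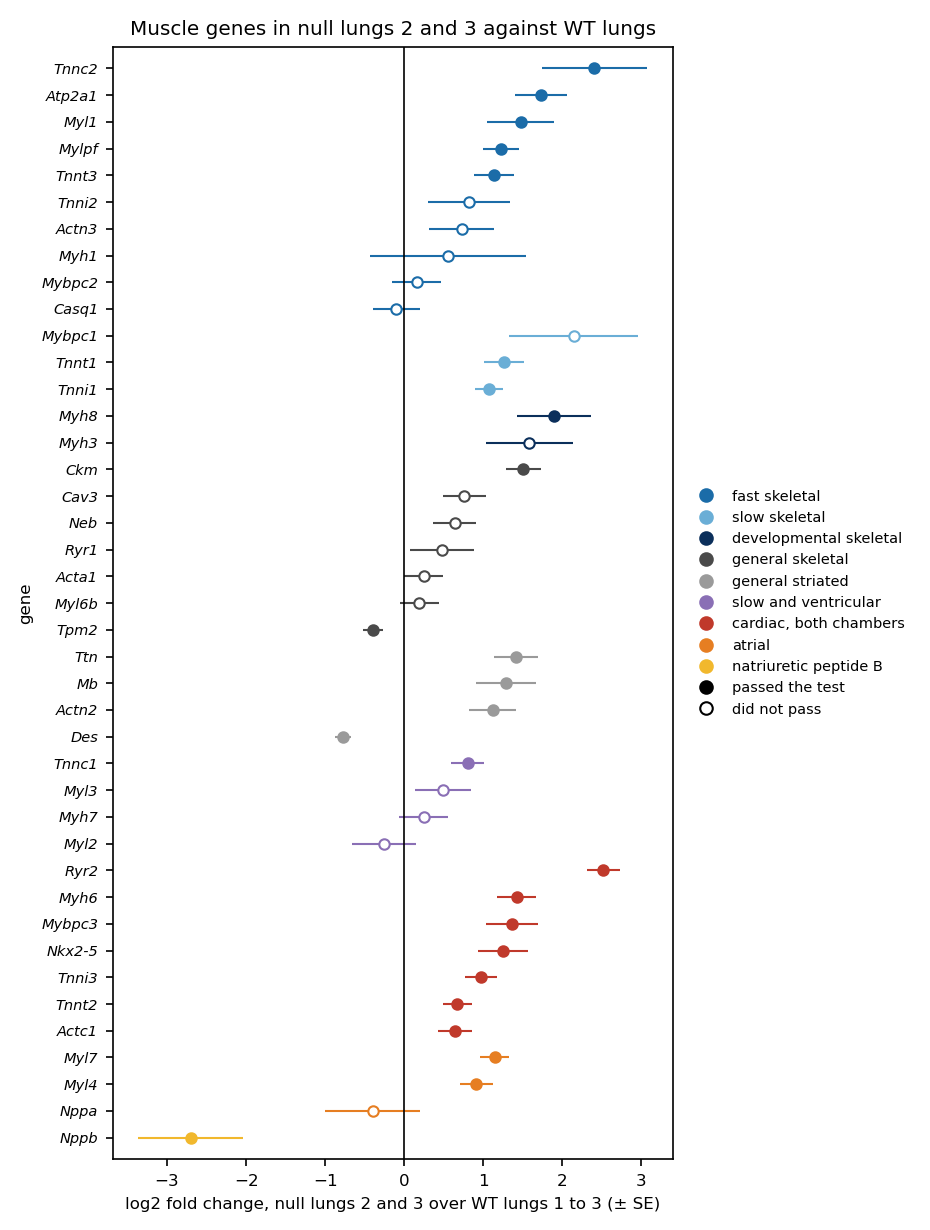
Log2 difference of null lungs 2 and 3 from the 3 WT lungs for each of the 41 members tested, with bars of ± 1 SE, grouped by muscle type, and filled points for members that passed the test. The shared heart genes all lie to the higher side, with *Ryr2* farthest at 2.52, and *Des*, *Tpm2* and *Nppb* are the filled points on the lower side.

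In liver, little was left of the muscle genes once null liver 1 was set aside. With all 6 livers, 2 of 27 members tested passed edgeR's test (*Atp2a1* and *Myl6b*), where 26.9% of 14343 genes passed. An unadjusted p below 0.05 was reached by 23 of the 27 members and by 5935 of the 14343 genes. With null liver 1 kept and null liver 2 left out, 23 of 30 members passed, where 3395 of 14582 genes did. With null liver 3 left out instead, 23 of 30 members passed, where 3170 of 14574 genes did. With any 1 WT liver left out 0 members passed by edgeR's test (2 to 4 at an unadjusted p below 0.05), where 1641 to 2268 genes passed. These counts, too, rest on a contrast that the choice of the list used. Without null liver 1, 1 of 27 passed, where 23.8% of 14501 genes passed. That gene was *Atp2a1*, the fast calcium pump, at 0.718 and 0.678 CPM in null livers 2 and 3 against 0.231, 0.279 and 0.312 CPM in WT, higher by 1.51 ± 0.37 (log2, SE; edgeR adjusted p = 0.0222), and the call was lost with DESeq2 and when any 1 of 4 of the 5 livers was left out. Summed over the list, null livers 2 and 3 held 47.8 and 42.3 CPM and the WT livers 45.1 to 50.4 CPM, of which *Des* alone made up 6.12 to 12.6 CPM.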

How the data were processed

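Poly-A RNA of 3 WT and 3 null newborn lungs and livers was sequenced from stranded libraries as 75-base pairs. The submitters' processing notes name FastQC, STAR 2.5.2a, DESeq2 and build mm10, with no order. The authors deposited raw whole-number counts per gene for each library, without normalization; the counting program, annotation and strand setting are not given in the sources used here. The near-identical haemoglobin genes *Hba-a1*, *Hba-a2*, *Hbb-bt* and *Hbb-b2* had 0 counts in every library; whether members that share sequence were undercounted was not tested. Of the deposited gene symbols, 27 had been turned into dates, none of them a member.

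The members and all gene lists were chosen with earlier results of these data known. Levels were CPM of total counts, and RPKM used merged exons of GENCODE M21 basic (GRCm38). Genes were filtered with filterByExpr, scaled by TMM and tested by the quasi-likelihood test of edgeR 4.0.16 in R 4.3.3, with Benjamini-Hochberg adjustment over all genes tested, and called at adjusted p below 0.05 and at least 1.2-fold. SE is the log2 difference divided by the square root of F. DESeq2 1.42.0 was an alternative, beside its size factors in edgeR, a floor of 10 counts per library, every gene with at least 1 count, no minimum fold, a replicate block, and each library left out in turn. The fits were also run on simulated counts, with the same dispersion for every gene, no outlying library and changes planted only in well-counted genes. Such counts cannot check the fits for members near the 3-count limit or for the library labelled null lung 1. Depth of 26759463 to 42914295 counts sets the 3-count limit of 0.0699 to 0.112 CPM; intervals and limits cover counting error only.

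In each class, up to 4 members with the highest RPKM in any library were given in every library, and the others by range and count. Of other lists, counts were given and up to 3 genes with the highest CPM were eligible to be named. Members outside these rules that are named for a ratio, an edge of a range or a call were chosen after their values were seen. No 2 replicates agreed within sampling noise. Deviations from the group means of WT lung and WT liver libraries with the same number correlated at 0.223, 0.190 and 0.155. Those with different numbers correlated below 0. The deviations of a group sum to 0 for each gene, which pushes these values below 0 when the others are positive. They are therefore no separate sign of pairing. The numbers were taken to pair the samples, which the labels do not state. The main fit did not use this pairing, which entered only through the replicate block. Null lung and liver of the same number correlated at 0.475, 0.399 and 0.407. Null lung 2 with null liver 3 gave 0.236, and null lung 3 with null liver 2 gave 0.280. Null and WT libraries of a tissue shared only a number (correlations -0.0728 to 0.137). Promoter sequences are from RefSeq (GRCm38.p6), which held 40 of the 46 members.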

Additional observations from a re-analysis of the deposited data

How the results depend on the processing

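Counts of members called moved as follows. For null against WT lung (0 called), DESeq2 called 1, and leaving out 1 library gave 0 to 25, the 25 without the library labelled null lung 1. For null lungs 2 and 3 against WT (25), leaving out 1 library gave 16 to 23, the 16 without null lung 2, and 34 of the 125 single-member results of those fits lost their call. For null against WT liver (2), DESeq2, every gene with at least 1 count and the replicate block each gave 0, a minimum of 10 counts in every library gave 5, and leaving out 1 library gave 0 to 23, the 23 without null liver 2 or null liver 3. Without null liver 1 (1), DESeq2 and the minimum of 10 counts gave 0, and leaving out a further library gave 0 to 2. For WT lung against WT liver (28), the minimum of 10 counts gave 14, and leaving out 1 library gave 28 to 31; all 28 members kept their call in every alternative that tested them. No member reversed. DESeq2's size factors and the absence of a minimum fold moved no count of members by over 1.5 times.

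With a replicate block, 0 members were called for null against WT lung, 26 without the library labelled null lung 1, 0 for null against WT liver, 1 without null liver 1 (*Myl6b* in place of *Atp2a1*) and 28 for the paired WT lung against WT liver, where it changed no call. Genes called for null against WT lung numbered 51, and 2 with DESeq2's size factors, 2355 with DESeq2, 210 with at least 10 counts, 0 with every gene with at least 1 count and 0 with the block. Over all comparisons, this one included, the count of genes called moved by over 1.5 times in 14 of 28 fits that left out a library. Dividing summed CPM by TMM-scaled totals moved 9 of 12 library sums beyond their counting intervals, and myosin shares of counts not divided by length moved in 16 of 77 cases. The causes were not tested. With 2 null libraries in lung and liver, small differences may have been missed, and members under about 1 CPM rest on few counts.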
